A study of Mus musculus with 6 samples.

Results

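The genes described here are 10 markers of the mural cells that wrap blood vessels, followed in RNA sequenced from sorted thymic endothelial cells (ECs). Of these, 8 mark pericytes (Pdgfrb, Rgs5, Notch3, Des, Abcc9, Kcnj8, Vtn and Cspg4) and 2 mark vascular smooth muscle (Acta2 and Myh11). They were picked by name out of 24457 genes on chromosomes in the deposited tables. Earlier results of these data were known by then, so counts over them are descriptive. All 10 were among the 11717 genes with a level of at least 1 FPKM in at least 2 samples, which were the genes tested. FPKM counts the sequenced fragments of a gene per kilobase of transcript, scaled to the depth of the library, so that levels can be set side by side between genes.

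The thymi came from wild-type female C57BL/6 mice aged 4 to 6 weeks by the sample labels. Cells positive for CD31 and negative for CD45 and EpCAM were sorted at a purity of at least 90% into Ly6C+Selp- (type I), Ly6C+Selp+ (type II) and Ly6C-Selp+ (type III) ECs. There were 2 libraries of each subset, numbered replicate 1 and 2, and 6 in all. The labels do not say whether the replicates came from separate mice or pools, so p-values measure the spread between these libraries, which may be technical. The question asked of the subsets was which ECs carry the features of the portal through which progenitors enter the thymus.

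Pericytes sit within the basement membrane of capillaries and small venules, and smooth muscle cells form the contractile coat of larger vessels. Endothelial PDGF-B recruits pericytes through the receptor encoded by Pdgfrb, and Notch signals between the vessel lining and its wall act through Notch3. Neither cell type is defined by CD31, the antigen used for the sort. In a bulk library fewer mural cells and less RNA per mural cell cannot be told apart. Nor can either be told from a change in RNA of these genes made by the ECs themselves.

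Estimated fragments per library, read back from the deposited confidence bounds, ranged from 1452483 to 2423146. The sort labels were matched by their genes: Selp was at 5.20 to 7.87 FPKM in type I and 313 to 657 FPKM in the other libraries, Ly6c1 was at 59.7 to 99.6 FPKM in type III and 351 to 1010 FPKM elsewhere, and Pecam1 (CD31) was at 496 to 867 FPKM throughout. The 10 endothelial markers, led by Pecam1 and Cdh5, summed to between 2134 and 3044 FPKM, with none at 0. They were not all level: 2 of the 10 had a limma adjusted p under 0.05 and were lower in type III than in type I, and 0 were higher. These were Kdr and Cldn5, named after their values were seen. Cldn5 was at 410 and 364 FPKM in type I and 35.4 and 23.4 FPKM in type III (log2 fold change -3.70). Over all tested genes 2.05% were called lower and 2.09% higher. The 7 macrophage and dendritic cell markers, led by Cd74 and Lyz2, summed to between 109 and 907 FPKM and were higher in replicate 1 than in replicate 2 of each subset. The 9 thymocyte markers, led by Lck and Ptprc, did so too. They summed to 25.3 to 87.3 FPKM in type I, 41.6 to 54.8 FPKM in type II and 70.2 to 141 FPKM in type III. The 8 thymic epithelial markers, led by Krt8 and Krt5, summed to 12.6 to 49.8 FPKM. The 4 lymphatic markers found on 1 row each, led by Flt4 and Pdpn, summed to 9.85 to 30.1 FPKM. Prox1 and Lyve1, named after their values were seen, were higher in type III than in type I without overlap, as 20.7% of all tested genes were. Prox1 was at 0.324 and 0.519 FPKM in type I and 3.05 and 3.22 FPKM in type III. Lyve1 was at 0 in both type I libraries and at 12.4 and 1.07 FPKM in type III. Flt4 was lower in type III without overlap, and none of the 4 was called. The red cell genes Hbb-b1 and Alas2 summed to 0 to 71.8 FPKM.

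The 8 pericyte genes were lower in type III ECs than in type I ECs, and 5 of them passed the test: Pdgfrb, Notch3, Abcc9, Kcnj8 and Vtn. The background of that comparison was 4.14% of the 11717 tested genes called in either direction, with 2.05% lower and 2.09% higher. None of the 8 rose. The 2 smooth muscle genes took another course: Acta2 and Myh11 were at their lowest in type I and at their highest in type II. Neither passed the test in any comparison (0 called by limma). For type II against type I both had an unadjusted p under 0.05, as did 877 of the 11717 tested genes. The median log2 fold change of the 8 pericyte genes from type I to type III was -1.90, beside 0.08 over all tested genes, and from type I to type II it was -0.07, beside -0.06. The plot of member levels by subset shows these values.

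**Figure D1:**
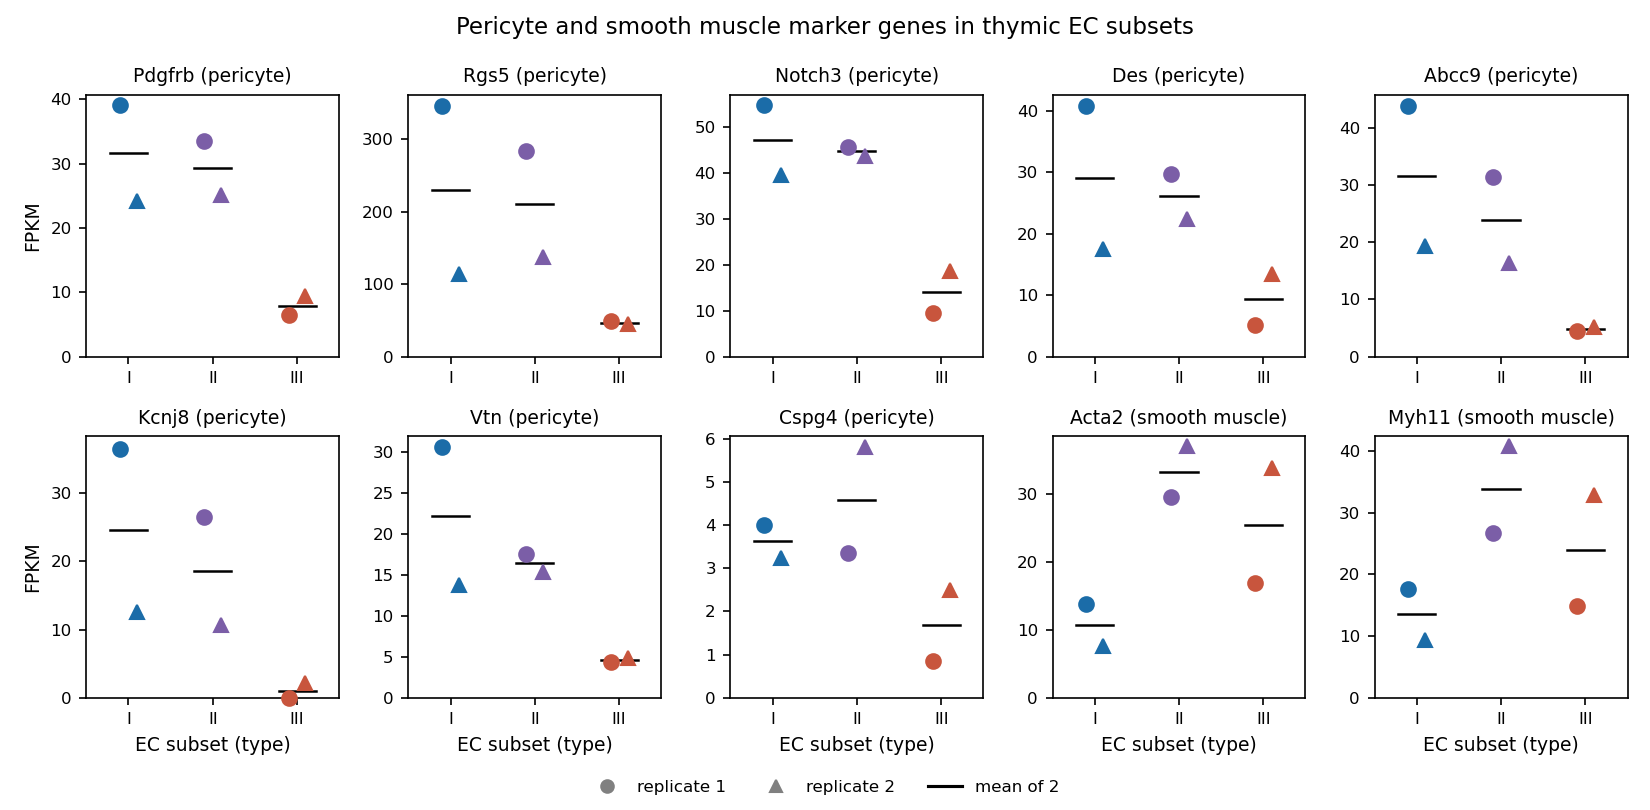
Level in FPKM (linear axes from 0) of the 8 pericyte genes and of Acta2 and Myh11 in types I, II and III, with a circle for replicate 1, a triangle for replicate 2 and a bar for the mean of 2. Both type III libraries lie below the type I and type II libraries for each of the 8 pericyte genes, whereas Acta2 and Myh11 are lowest in type I replicate 2.

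Pdgfrb encodes PDGF receptor beta, the receptor by which pericytes are recruited. Its level was 39.0 and 24.2 FPKM in replicates 1 and 2 of type I, 33.5 and 25.1 FPKM in type II, and 6.40 and 9.43 FPKM in type III. The type III libraries were below the other 4, and types I and II overlapped. Fold changes are given on the log2(FPKM + 1) scale, where those of low genes are understated, and that of type III against type I was -1.85 (SE 0.33, limma adjusted p = 0.013), and against type II it was -1.77 (SE 0.33, limma adjusted p = 0.077). Set against the CD31 gene, Pdgfrb was at 5.84% and 4.88% of the Pecam1 level in type I, 4.56% and 3.72% in type II, and 0.738% and 1.16% in type III. These shares also depend on Pecam1, which was at 669 and 496 FPKM in type I and 867 and 811 FPKM in type III. Cdh5, another endothelial gene, went the other way, at 632 and 595 FPKM in type I and 414 and 486 FPKM in type III.

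Notch3 encodes the Notch receptor of mural cells, and lies at chr17:32257838-32303797 on the minus strand (mm9). It was at 54.6 and 39.4 FPKM in type I, 45.6 and 43.7 FPKM in type II, and 9.40 and 18.6 FPKM in type III. Again both type III libraries were below the rest and types I and II overlapped. The log2 fold change of type III against type I was -1.73 (SE 0.33, limma adjusted p = 0.021) and against type II -1.68 (SE 0.33, limma adjusted p = 0.10).

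Abcc9 and Kcnj8 encode the regulatory subunit SUR2 and the pore Kir6.1 of the ATP-sensitive potassium channel of mural cells, and the pair are neighbours on chromosome 6, at chr6:142536382-142650794 and chr6:142513459-142519876 (mm9, both minus strand), with 16505 bases between them. Abcc9 was at 43.9 and 19.4 FPKM in type I, 31.4 and 16.3 FPKM in type II, and 4.46 and 5.16 FPKM in type III. Kcnj8 was at 36.6 and 12.6 FPKM in type I, 26.5 and 10.7 FPKM in type II, and 0 and 2.08 FPKM in type III. For both genes the type III libraries did not overlap with those of the other subsets, and Kcnj8 was the lowest of the 10 genes in each type III library.

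The log2 fold change of Abcc9 from type I to type III was -2.38 (SE 0.43, limma adjusted p = 0.014). For Kcnj8 it was -3.69 (SE 0.65, limma adjusted p = 0.014), a value that depends on the pseudocount because Kcnj8 was listed at 0 in type III replicate 1. In that library 3 fragments would read as 0.672 FPKM, so the level there was at least 54.4-fold lower than in type I replicate 1 and at least 39.5-fold lower than in type II replicate 1, limits that cover counting error only. In replicate 2, with an estimated 16 fragments of Kcnj8 in type III, it was 6.05-fold lower than in type I. The Kcnj8 level was 0.834 and 0.650 of that of Abcc9 in type I, 0.844 and 0.655 in type II, and 0 and 0.403 in type III.

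Vtn encodes vitronectin, an adhesive plasma and matrix protein that brain pericytes make, at chr11:78312622-78315827 on the plus strand (mm9). It was at 30.6 and 13.7 FPKM in type I, 17.5 and 15.4 FPKM in type II, and 4.34 and 4.86 FPKM in type III. The type III values were again below all others. The log2 fold change of type III against type I was -1.95 (SE 0.37, limma adjusted p = 0.019).

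The other 3 pericyte genes did not pass the limma test. By another test, Cuffdiff, the paper lists Rgs5, Des and also Acta2 as different between types I and III. Cspg4 and Myh11 are not in that list. Rgs5, a regulator of G-protein signalling at chr1:171585632-171623657 on the plus strand (mm9), had the highest level of the 10 genes in each library: 346 and 114 FPKM in type I, 284 and 137 FPKM in type II, and 48.6 and 45.4 FPKM in type III. Its log2 fold change of -2.06 from type I to type III was larger than that of Pdgfrb, but its type I replicates lay farther apart (SE 0.50, limma adjusted p = 0.057). Rgs5 alone made up 44.7% to 61.4% of the summed level of the 8 genes.

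Des encodes desmin, an intermediate filament protein shared by pericytes and muscle, at chr1:75356867-75365154 on the plus strand (mm9). It was at 40.8 and 17.5 FPKM in type I, 29.8 and 22.4 FPKM in type II, and 5.13 and 13.5 FPKM in type III, without overlap between type III and the rest (log2 fold change against type I -1.56, SE 0.48, limma adjusted p = 0.14). Cspg4 encodes the proteoglycan NG2, at chr9:56712911-56747677 on the plus strand (mm9). It was the least abundant of the 8 outside type III, at 4.01 and 3.25 FPKM in type I, 3.36 and 5.82 FPKM in type II, and 0.848 and 2.50 FPKM in type III, where the lower value rests on an estimated 15 fragments (log2 fold change against type I -0.86, SE 0.42, limma adjusted p = 0.42).

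Acta2 encodes smooth muscle alpha-actin, at chr19:34314826-34329863 on the minus strand (mm9). It was at 13.7 and 7.53 FPKM in type I, 29.5 and 37.0 FPKM in type II, and 16.9 and 33.8 FPKM in type III. Both type II and both type III libraries were above type I, and types II and III overlapped. The log2 fold change of type II against type I was 1.60 (SE 0.39, limma adjusted p = 0.18), that of type III against type I was 1.16 (SE 0.39, limma adjusted p = 0.18), and that of type III against type II was -0.45 (SE 0.39, limma adjusted p = 0.78).

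Myh11 encodes the smooth muscle myosin heavy chain, at chr16:14194620-14291501 on the minus strand (mm9). It was at 17.7 and 9.40 FPKM in type I, 26.7 and 40.8 FPKM in type II, and 14.8 and 32.9 FPKM in type III. Type II was above type I without overlap, while type III overlapped with both. The log2 fold change of type II against type I was 1.29 (SE 0.43, limma adjusted p = 0.42) and that of type III against type I was 0.73 (SE 0.43, limma adjusted p = 0.54).

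The stretch before the transcription start is shown for Kcnj8 and Abcc9, which were low together in type III, and for Acta2, which was not. These are the 250 bases upstream of the RefSeq start (build GRCm38.p6, 5′ to 3′ on the minus strand of the gene), at chr6:142571615-142571864, chr6:142702275-142702524 and chr19:34255374-34255623. Capitals mark TGGGAA, the core of the motif bound by RBPJ, the DNA-binding partner of Notch.
Kcnj8: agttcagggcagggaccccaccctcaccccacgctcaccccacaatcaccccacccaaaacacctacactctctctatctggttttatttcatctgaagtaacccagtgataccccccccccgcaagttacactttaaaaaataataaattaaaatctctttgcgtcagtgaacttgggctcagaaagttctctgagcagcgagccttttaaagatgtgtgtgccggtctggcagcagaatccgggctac
Abcc9: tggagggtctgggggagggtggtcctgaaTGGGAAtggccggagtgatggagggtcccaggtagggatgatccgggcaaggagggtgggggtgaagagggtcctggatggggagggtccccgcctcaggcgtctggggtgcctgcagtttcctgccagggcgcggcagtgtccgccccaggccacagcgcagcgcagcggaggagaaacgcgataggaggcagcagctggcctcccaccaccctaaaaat
Acta2: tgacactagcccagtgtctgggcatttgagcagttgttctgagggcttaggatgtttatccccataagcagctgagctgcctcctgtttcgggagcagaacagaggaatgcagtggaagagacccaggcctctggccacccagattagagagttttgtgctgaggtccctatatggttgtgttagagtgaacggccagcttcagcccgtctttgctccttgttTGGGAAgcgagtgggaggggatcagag
Of the 10 genes, 8 had a window in the table. TGGGAA, read on both strands, was in 3 of these 8 windows (Abcc9, Vtn and Acta2) and in 21.6% of 32851 windows of the same length genome-wide. The E box CANNTG was in 5 of the 8 and in 66.2% of all windows. The CArG box, the site of SRF at contractile genes, was searched without any mismatch, and in that strict form it was in none of the 8 and in 1.47% of all windows. The CArG boxes known at Acta2 depart from the strict form, so this search does not find them. A match is only a run of letters, and its absence says only that the letters are not in this window. The match in Acta2 began 27 bases before the start and that in Abcc9 221 bases before it, and the Kcnj8 window held none.

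In the test of type III against type I, 8 of 8 pericyte genes had both type III libraries below both type I libraries, where 17.1% of all tested genes did. Both type III libraries of Acta2, but not of Myh11, were above both type I libraries, where 20.7% of all tested genes were. The 5 calls rested on single libraries: with type I replicate 1 left out 0 were called, with type III replicate 1 left out 0, and with type III replicate 2 left out 3 (Kcnj8, Notch3 and Pdgfrb). Notch3 was not called without type I replicate 2 either. With no filter on low values 1 was called (Pdgfrb), while under 6 of the other filters, scalings and fits Rgs5 was called too. The log2 fold changes stayed negative for each of the 8 genes when any library was left out, between -0.40 (Cspg4) and -4.50 (Kcnj8).

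**Figure D2:**
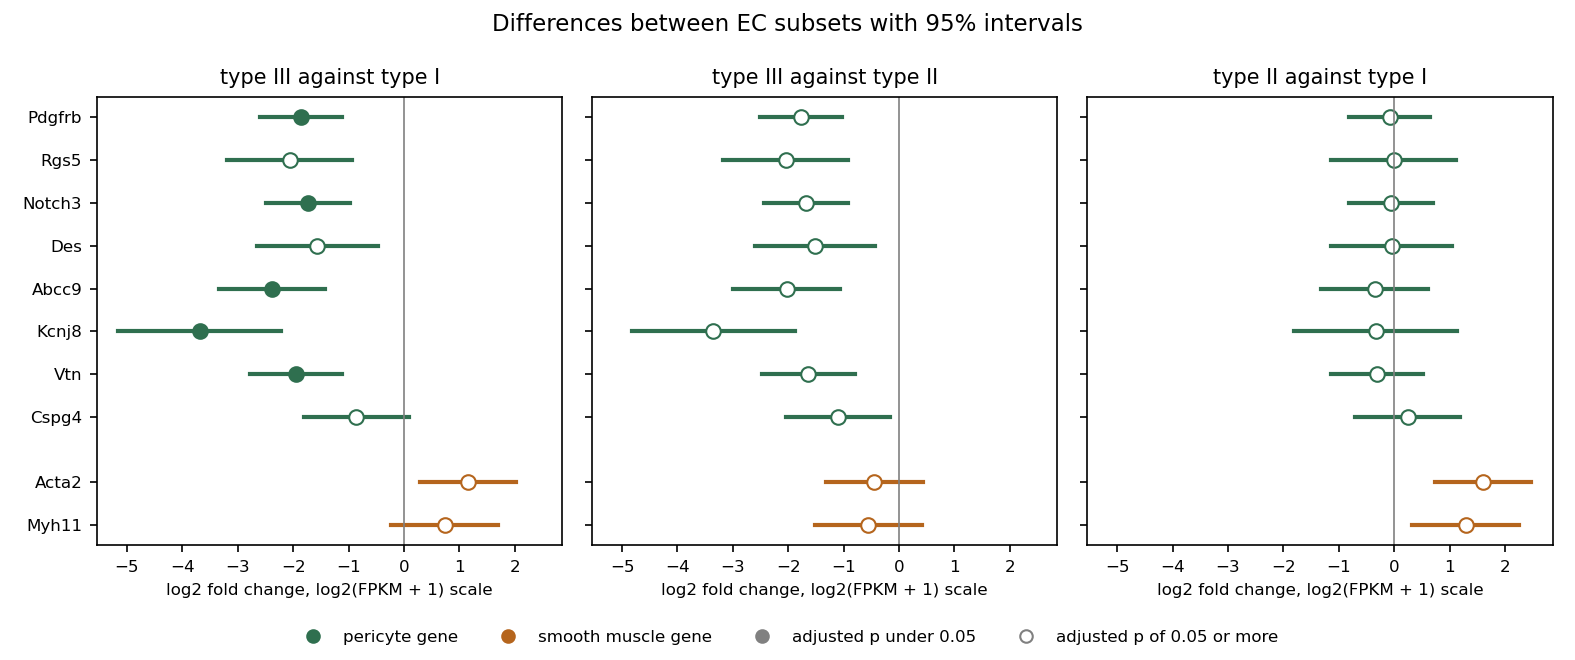
Fitted log2 fold changes on the log2(FPKM + 1) scale (points) with 95% intervals (lines) for the 10 genes in each comparison of subsets, where filled points have a limma adjusted p under 0.05. The pericyte genes lie left of 0 in both comparisons of type III, with 5 filled points against type I, and around 0 for type II against type I, where Acta2 and Myh11 lie to the right.

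Type III was also below type II. All 8 pericyte genes had both type III libraries below both type II libraries, as 13.3% of all tested genes did, and their log2 fold changes ran from -1.10 (Cspg4) to -3.35 (Kcnj8), with a median of -1.72 beside 0.14 over all tested genes. None of the 8 passed the limma test (background 0.222% called, 0.128% lower and 0.0939% higher). All 8 nonetheless had an unadjusted p under 0.05, as did 1170 of the 11717 tested genes. The number called depended on scaling: it was 3 after median ratio scaling, 5 as TPM, 3 after quantile normalization and 6 with a replicate block. Fibroblast markers were low alongside them: 9 of the 10 were lower in type III than in type II, 8 of them without overlap, with a median of -0.98, and 1 (Pi16) was called, a call lost with any library left out. Their part in the pericyte difference was not tested. The smooth muscle genes were lower in type III than in type II within each replicate number, but the groups overlapped. Thymocyte and macrophage markers went the other way. All 8 tested thymocyte markers were higher in type III than in type II, 7 of them without overlap, with a median of 1.00. All 6 tested macrophage and dendritic cell markers were higher too, 3 of them without overlap, with a median of 1.19. None of these was called by limma. Among all tested genes 27.7% were higher in type III than in type II without overlap. The part of these cells in the pericyte difference was not tested.

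Between types I and II no difference of the pericyte genes exceeded the spread of the replicates. The libraries of these subsets overlapped for each of the 8 genes, and 0 of 8 were called or had an unadjusted p under 0.05. The background was 0.393% called by limma, 0.0683% lower, and 20.6% lower without overlap, and 877 of the 11717 tested genes had an unadjusted p under 0.05. The 95% intervals were nonetheless wide: that of Pdgfrb ran from -0.82 to 0.65 and that of Kcnj8 from -1.81 to 1.14 on the log2 scale, so that moderate differences were not detectable here. By mean level 7 of the 8 genes ranked type I first, type II next and type III last, and Cspg4 ranked type II first, but types I and II did not differ beyond their spread. The smooth muscle genes ranked type II, type III and type I, where types II and III overlapped. Both had their type II libraries above their type I libraries, as 13.0% of all tested genes did, and 0 of 2 were called higher, beside 0.324% of all tested genes.

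Within each replicate number all 8 pericyte genes were lower in type III than in type I, and by more in replicate 1. In replicate 1 the difference ran from 4.73-fold (Cspg4) to 9.83-fold (Abcc9), apart from Kcnj8, listed at 0. In replicate 2 it ran from 1.30-fold (Cspg4 and Des) to 6.05-fold (Kcnj8). Acta2 and Myh11 showed the opposite imbalance. In replicate 1 Acta2 was 1.23-fold higher and Myh11 1.19-fold lower in type III than in type I, and in replicate 2 they were 4.49-fold and 3.50-fold higher. From type I to type II, Acta2 was 2.15-fold higher in replicate 1 and 4.91-fold higher in replicate 2, and Myh11 1.51-fold and 4.34-fold higher.

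The replicates of a subset differed in 1 direction for most of the members. In type I, replicate 1 was above replicate 2 for 8 of 8 pericyte genes, by 1.24-fold to 3.04-fold and a median of 2.24-fold, where the median over all tested genes was 1.39-fold. In type II it was above for 7 of 8, with a median ratio of 1.33, beside 1.12 over all tested genes. In type III the order was turned, with replicate 2 above replicate 1 for 7 of 8 and a median ratio of replicate 1 to 2 of 0.591, beside 1.16 over all tested genes. Acta2 and Myh11 were higher in replicate 1 of type I and in replicate 2 of types II and III. Macrophage and thymocyte markers were higher in replicate 1 of each subset, and their part in these differences was not tested.

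Set against each other within a library, the order of the pericyte and smooth muscle genes differed between the subsets. The mean log2(FPKM + 1) level of the 8 pericyte genes minus that of Acta2 and Myh11 was 1.32 and 1.15 in type I, 0.13 and -0.78 in type II, and -1.54 and -1.89 in type III. The subsets did not overlap in this difference. The ratio of summed levels gave the same order, with 19.0 and 14.4 FPKM of pericyte genes per FPKM of smooth muscle genes in type I, 8.41 and 3.55 in type II, and 2.49 and 1.52 in type III. Acta2 was at 0.351 and 0.312 of the Pdgfrb level in type I, 0.880 and 1.48 in type II, and 2.64 and 3.59 in type III. In both type III libraries Acta2 and Myh11 followed Rgs5 as the most abundant of the 10 genes, whereas in both type I libraries Cspg4 alone was below them.

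**Figure D3:**
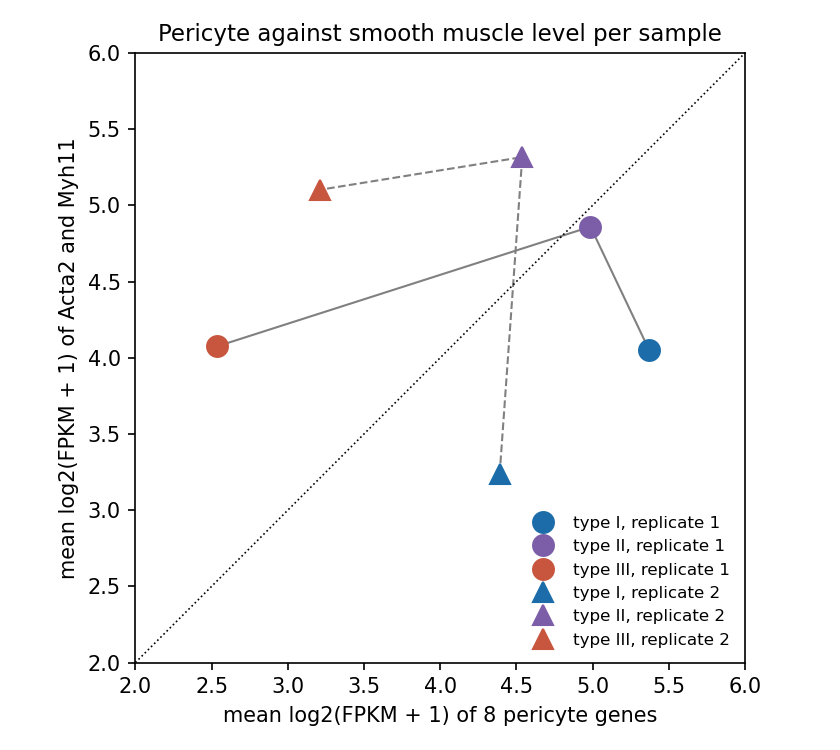
Mean log2(FPKM + 1) of the 8 pericyte genes (x axis) against that of Acta2 and Myh11 (y axis) in each library, with circles joined by a solid line for replicate 1, triangles joined by a dashed line for replicate 2, and a dotted line where both means are equal. The type I libraries lie below the dotted line by 1.32 and 1.15, the type II libraries near it on either side, and the type III libraries above it by 1.54 and 1.89.

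The summed level of the 10 fibroblast markers, led by Col3a1 and Dcn, was 175 to 287 FPKM in type I, 290 to 469 FPKM in type II and 184 to 187 FPKM in type III, with none of the 10 at 0. It was therefore highest in type II, as were Acta2 and Myh11, and it did not separate type III from type I as the pericyte sum did, which was 244 to 596 FPKM in type I, 276 to 472 FPKM in type II and 79.2 to 101 FPKM in type III. Only Pi16 of these 10 markers was called lower from type I to type III (1 of 10), a call lost with any library left out. The 4 smooth muscle markers, Tagln, Myh11, Acta2 and Cnn1, summed to 40.7 to 65.0 FPKM in type I, 171 to 215 FPKM in type II and 109 to 168 FPKM in type III. The part of fibroblasts in the smooth muscle levels was not tested.

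Of 25 other pericyte genes 22 were tested, and from type I to type III 4 were called lower and 0 higher, beside 2.05% and 2.09% of all tested genes: Gja4 (a connexin of mural cells and arterial endothelium), Steap4 (a metalloreductase), Cox4i2 (a subunit of cytochrome c oxidase) and Art3 (of the ADP-ribosyltransferase family). The 22 had a median log2 fold change of -1.34, and 16 had both type III libraries below both type I libraries, as 17.1% of all tested genes did. Under median ratio scaling, TPM or quantile normalization 7 were called lower. Gja4 was at 28.1 and 27.0 FPKM in type I, 23.3 and 14.9 FPKM in type II, and 1.51 and 3.83 FPKM in type III (log2 fold change against type I -3.04, SE 0.37, limma adjusted p = 0.0022). It was also the only one of the 22 called lower against type II (-2.50, SE 0.37, limma adjusted p = 0.044), a call lost with any library left out, while 4 or 5 of the 22 were called under the other scalings or the block.

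Steap4 was at 48.3 and 16.6 FPKM in type I and 3.64 and 3.08 FPKM in type III (-2.76, SE 0.51, limma adjusted p = 0.017), a call lost without type I replicate 1 or without either type III library. The log2 fold changes of Cox4i2 and Art3 were -2.34 and -2.63. From type I to type II none of the 22 was called by limma (1 had an unadjusted p under 0.05, beside 877 of the 11717 tested genes), with a median of 0.07. Anpep and P2ry14, named after their values were seen, were the 2 with a positive fold change from type I to type III, of 1.40 and 0.06, neither called.

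The contractile genes did not move as one. Of 20 listed, 15 were tested, Cnn1, Actg2, Myocd, Pln and Kcnmb1 being too low, and 3 were called higher and 0 lower in type III than in type I, beside 2.09% and 2.05% of all tested genes. Without type I replicate 2 only 1 was called, and under the other scalings or the block 5 to 7 were, 1 or 2 of them lower. Tagln encodes the actin-binding protein transgelin and was at 33.6 and 23.8 FPKM in type I, 114 and 137 FPKM in type II, and 77.2 and 100.5 FPKM in type III. It followed the order of Acta2 and Myh11, and it was called higher in type II (2.11, SE 0.27, limma adjusted p = 0.014) and in type III (1.60, SE 0.27, limma adjusted p = 0.011) than in type I. The type II call was lost without type I replicate 2 or without either type II library, and the type III call without replicate 2 of type I or of type III.

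Ppp1r14a encodes an inhibitor of myosin phosphatase, and its level was highest in type III instead, at 15.6 and 13.3 FPKM in type I, 41.1 and 66.2 FPKM in type II, and 108 and 127 FPKM in type III (type III against type I 2.93, SE 0.28, limma adjusted p = 0.00068). It was also called higher in type II than in type I (1.79, SE 0.28, limma adjusted p = 0.045), a call lost with any library left out. Tagln and Ppp1r14a were the 2 of 15 called there, beside 0.324% of all tested genes called higher. Sncg encodes gamma-synuclein and was called higher in type III than in type I (1.54, SE 0.26, limma adjusted p = 0.012), a call lost without type I replicate 2 or type III replicate 1. The median log2 fold change of the 15 genes was 0.17 for type III against type I, 0.69 for type II against type I, with 9 of 15 higher without overlap (13.0% of all tested genes were), and -0.34 for type III against type II. In that last comparison none was called by limma and 4 had an unadjusted p under 0.05, beside 1170 of the 11717 tested genes. The heat map of both gene groups shows the uneven course of the contractile genes beside the more even one of the pericyte genes.

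**Figure D4:**
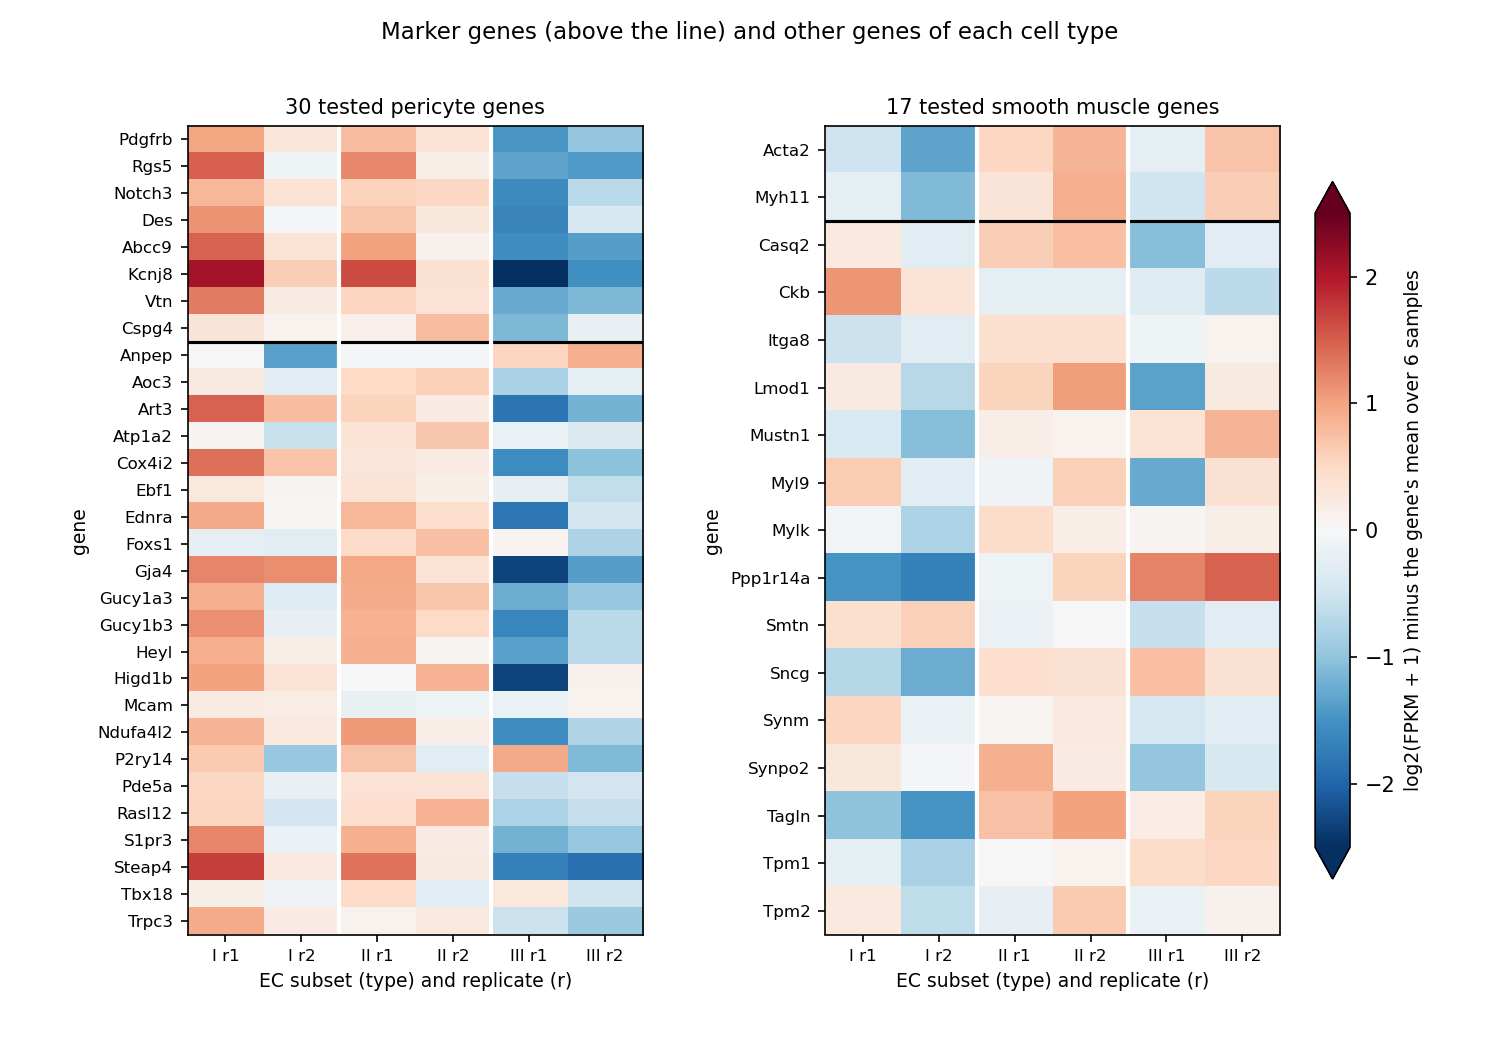
Log2(FPKM + 1) minus the gene's mean over the 6 libraries, as colour from -2.5 to 2.5, for 30 tested pericyte genes (left) and 17 tested smooth muscle genes (right), with the 8 and 2 marker genes above the black line and libraries in columns. Most pericyte genes are blue in both type III columns, Tagln is red in types II and III as Acta2 and Myh11 are in part, and Ppp1r14a is red in type III.

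The genes that signal between ECs and mural cells, ligands and receptors alike, were read in the same sorted EC libraries. None of the libraries was of sorted mural cells. Pdgfb, the endothelial ligand of Pdgfrb, was at 74.7 and 73.8 FPKM in type I, 35.3 and 33.1 FPKM in type II, and 25.0 and 22.4 FPKM in type III. Its level was lower in type II than in type I without overlap, as for 20.6% of all tested genes, but was not called (limma adjusted p = 0.11). The levels of its receptor overlapped there. Pdgfb was called lower in type III than in type I (-1.61, SE 0.23, limma adjusted p = 0.0051). Of the 19 genes of this list 6 were called lower and 1 higher in type III than in type I, with a median of -0.67, beside 2.05% lower and 2.09% higher over all tested genes. Without type I replicate 2 or type III replicate 1 the 7 calls became 4, and without type III replicate 2 they became 3, with Pdgfb not among them. None was called by limma for type II against type I (10 had an unadjusted p under 0.05) or for type III against type II (8 had one), where the block gave 5 and 2 calls. Of all 11717 tested genes, 877 and 1170 had an unadjusted p under 0.05 in these comparisons.

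Among the 6 were the Notch ligands Jag2 (-2.24, SE 0.26, limma adjusted p = 0.0018) and Dll4 (-1.41, SE 0.23, limma adjusted p = 0.010, not called without type I replicate 2 or without either type III library) and the endothelial receptor Notch4 (-2.36, SE 0.24, limma adjusted p = 0.00078). The gene called higher was Angpt2, named after its values were seen, a ligand of the endothelial receptor Tek that loosens mural contact, at 13.0 and 9.49 FPKM in type I and 35.9 and 32.6 FPKM in type III (1.54, SE 0.26, limma adjusted p = 0.012), a call lost without type I replicate 2 or without either type III library.

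Relatives of the members were followed as well. Of the 3 other genes of the ATP-sensitive and inward rectifier potassium channels, Kcnj2 was at 0.641 to 3.22 FPKM and was not called, and Abcc8, the relative of Abcc9, was at 0 to 0.353 FPKM, below the filter. Of 8 actin and myosin paralogs 4 were tested and none was called by limma in any comparison, the 2 most abundant being the cytoplasmic actins Actb, at 871 to 1399 FPKM, and Actg1, at 452 to 677 FPKM. The skeletal and cardiac actins Acta1 and Actc1 had group means of at most 0.403 FPKM, below the filter. Of 4 intermediate filament genes related to Des, Nes (nestin) was called lower, at 34.8 and 39.8 FPKM in type I, 16.7 and 15.8 FPKM in type II, and 3.07 and 3.45 FPKM in type III (-3.17, SE 0.26, limma adjusted p = 0.00030), and it was called lower against type II too (-2.02, SE 0.26, limma adjusted p = 0.032), where the call was lost with any library left out.

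To find the genes that followed the members most closely, each of 858 tested genes with a highest level of at least 5 FPKM and a range of at least 2 on the log2(FPKM + 1) scale was correlated with the mean standardized pericyte pattern over the 6 libraries. This is a description over 6 libraries that share 3 subsets. The 10 genes most like it were Arhgef17 (r = 0.995), Itga7 (a laminin-binding integrin, 0.994), Avpr1a (a vasopressin receptor, 0.991), Kcne4 (a potassium channel subunit, 0.988), Pcdh19 (0.987), Cdk14 (0.986), Gm13889 (0.981), Gucy1b3 (a subunit of the nitric oxide receptor, 0.979), Heyl (a Notch target, 0.978) and Gpc4 (0.976). Gucy1b3 and Heyl were among the other pericyte genes already listed, and 27 of the 858 genes had an r of at least 0.95. Pdgfrb itself had r = 0.995, Rgs5 0.944 and Cspg4 0.841 with the pattern they are part of, whereas Acta2 had r = -0.08 and Myh11 r = 0.09.

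None of the 858 genes followed the mean of Acta2 and Myh11 with an r of 0.95 or more. Tagln came closest (r = 0.918), followed by Zfp57 (0.899), Cadm3 (0.898), Crispld2 (0.893), Htr2a (0.879), Ptafr (0.863), Ret (0.852), Radil (0.850), Fam124a (0.846) and Sh2b2 (0.841). Cadm3, an adhesion molecule, was at 3.62 and 1.42 FPKM in type I, 25.1 and 34.9 FPKM in type II, and 19.7 and 29.3 FPKM in type III, and it was called higher than in type I in both (type II 3.20, limma adjusted p = 0.012, type III 2.90, limma adjusted p = 0.0030), the type II call being lost without replicate 2 of either subset. Ret, a receptor tyrosine kinase, was also called higher in both (type II 2.33, limma adjusted p = 0.013, type III 1.39, limma adjusted p = 0.027), but the first call was lost without any 1 of the 4 libraries compared and the second with any library left out, and of the 10 only Tagln was in a list of smooth muscle genes.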

How the data were processed

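RNA of 6 libraries, 2 of each of 3 thymic EC subsets, was sequenced by the authors on an Illumina HiSeq after NEBNext Ultra library preparation. Per the paper's methods and the submitters' processing notes, which also name CASAVA 1.8 and Cuffdiff, the authors mapped the reads to mm9 with TopHat2 2.0.10 and computed FPKM with Cufflinks 2.1.1. The gene annotation used is not given in the sources used here. The deposited FPKM tables give 1 library each, with confidence bounds and no counts. The fragments behind a value were estimated from those bounds as if they held counting error alone; 3 fragments corresponded to a median of 0.314 to 0.541 FPKM.

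From the deposited values, log2(FPKM + 1) was computed without rescaling for 24457 genes, and 95 rows not on chromosomes were left out. Tests were run on 11717 genes (1 FPKM or more in 2 or more samples) in R 4.3.3 by limma 3.58.1 (trend on mean expression, all 6 samples in 1 fit, Benjamini-Hochberg adjustment over all genes tested, threshold 0.05), checked on simulated data. A gene is called when its adjusted p is under 0.05. Coordinates are those of the deposited tables, 1-based. The members and gene lists were chosen with earlier results of these data known, so no p over a list is given. All 10 members are described in full. Of each other list the genes named are the up to 4 most abundant ones called in type III against type I, or the 2 most abundant where none was called; of each marker list, the 2 most abundant and any defining marker at 0, apart from 1 list that is not reported here; and the 10 genes most like each pattern. Alternatives were other pseudocounts (0.1 and 0.5), filters (none, or a mean of at least 5 FPKM) and scalings, a replicate block, no trend, only the 4 samples compared, and each library left out in turn.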

Additional observations from a re-analysis of the deposited data

Results flagged for a closer look

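The deposited tables also hold rows that are no genes of the mouse chromosomes, which entered no comparison. A row named RGC-mRFP, by its name a red fluorescent reporter, had more than 3 estimated fragments in each of the 6 libraries of wild-type ECs: 18.2 FPKM in type I replicate 1 and 1.83 FPKM in replicate 2, 23.7 and 5.31 FPKM in type II, and 28.3 and 3.23 FPKM in type III. It was higher in replicate 1 than in replicate 2 of each subset, and its estimated fragments numbered 4 to 34 per library. The row RGC-GFP was at 2.37 FPKM in type III replicate 2, on an estimated 5 fragments, and at 3 or fewer fragments in the other libraries. Their source was not tested.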

How the results depend on the processing

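The 5 pericyte calls of type III against type I became 1 with no filter on low values (16624 genes tested) and 6 with a mean of at least 5 FPKM, median ratio scaling, TPM, quantile normalization, a replicate block or only the 4 samples compared, and ranged from 0 to 6 with a library left out. For type III against type II the 0 pericyte calls became 3 under median ratio scaling, 5 under TPM, 3 under quantile normalization and 6 under the replicate block. No smooth muscle member was called by limma in any comparison under any alternative. Labels number the replicates but do not tie them to mice. The numbers were not taken as pairs in the main fit. Deviations from the subset mean nonetheless correlated positively between all subsets, at 0.18 to 0.31 over 11717 genes. A shared effect of replicate number was not tested. The block raised the genes called from 485 to 971 (type III against type I), 46 to 183 (type II against type I) and 26 to 229 (type III against type II). With no filter these were 317, 12 and 0 (1354 genes had an unadjusted p under 0.05 in the last), and with a library left out 209 to 404, 12 to 33 and 2 to 14. With no trend the last pair were 15 and 10. For type II against type I, 95 were called under median ratio scaling (66 higher and 29 lower, beside 38 and 8), 97 under TPM and 103 under quantile normalization (73 and 30), and the block gave 99 and 84. For type III against type II, 84 were called under median ratio scaling (23 higher and 61 lower, beside 11 and 15), 109 under TPM (18 and 91) and 90 under quantile normalization (22 and 68). Scaling to TPM moved the median of all tested genes from 0.08 to -0.05 for type III against type I and from 0.14 to -0.06 for type III against type II. The uncalled type II against type I changes turned sign for Pdgfrb under quantile normalization (0.019), for Rgs5 under median ratio scaling (0.042), TPM (0.065) and quantile normalization (0.013), for Notch3 under TPM (0.019) and quantile normalization (0.040), and for Des under median ratio scaling (0.0038), TPM (0.027) and quantile normalization (0.042). With a library left out they ranged from -0.42 to 0.25 for Pdgfrb, -0.81 to 0.79 for Rgs5, -0.29 to 0.18 for Notch3, -0.64 to 0.54 for Des, -0.92 to 0.22 for Abcc9, -1.07 to 0.40 for Kcnj8, -0.86 to 0.24 for Vtn and -0.081 to 0.56 for Cspg4, and Acta2 in type III against type II from -0.93 to 0.033. The mean pericyte minus smooth muscle level of type III went from -1.72 to -2.10 with a pseudocount of 0.1. These causes were not tested. The subset order of that level was kept with both other pseudocounts. Low levels limit Cspg4, Vtn and Kcnj8 in type III replicate 1, with estimates of 15, 15 and 0 fragments.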

Other observations

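The basement membrane in which pericytes lie is made by ECs and mural cells together. Of 11 matrix and proteoglycan genes of the vessel wall, all tested, 5 were called lower and 1 higher in type III than in type I, with a median log2 fold change of -0.94, beside 2.05% lower and 2.09% higher over all tested genes. The 6 calls became 2 with no filter, 3 with no trend, 2 without type I replicate 2 or type III replicate 2, and 1 (0 of them lower) without type III replicate 1. The 2 chains of collagen IV, Col4a1 and Col4a2, had mean levels of 1036 and 778 FPKM in type I and 424 and 303 FPKM in type III (log2 fold changes -1.29 and -1.37, limma adjusted p = 0.020 and 0.015), and Sparc, a collagen-binding protein, went from 1185 to 434 FPKM (-1.44, limma adjusted p = 0.011). The gene called higher was Bgn, the small proteoglycan biglycan, at 79.7 and 54.9 FPKM in type I, 224 and 178 FPKM in type II, and 467 and 463 FPKM in type III (2.79, SE 0.26, limma adjusted p = 0.00058). It was also called higher in type II than in type I (1.58, SE 0.26, limma adjusted p = 0.046), the only one of the 11 called there, but that call was lost with each library left out other than type I replicate 1. None was called by limma for type III against type II, where 4 had an unadjusted p under 0.05, beside 1170 of the 11717 tested genes.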
